A study of Homo sapiens with 6 samples.

Results

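Receptor tyrosine kinases are the subject here: 10 genes chosen by symbol (EGFR, ERBB2, ERBB3, MET, KIT, FGFR1, FGFR2, IGF1R, AXL and RET), of 25827 features in the authors' deposited table. Of these genes, 9 had a row of normalized reads, and all 9 were among the 21773 features tested. KIT had no row in the table used here and was read from the deposited profiles, which held all 10 genes. PRO-seq, an assay that maps engaged RNA polymerase, was run on SBC-3, a small cell lung cancer line. Cells received siSFPQ-2 or siSFPQ-3, which are different siRNAs against SFPQ, a nuclear RNA-binding protein, or the control siRNA siCtrl. Every siRNA was given at 10 nM by reverse transfection, and cells were taken after 72 h, with 2 libraries per group. No label says that the paired libraries of a group were grown apart. The p-values therefore rest on spread between libraries that may be technical.

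Receptor tyrosine kinases span the cell membrane, bind a growth factor outside the cell and phosphorylate tyrosines inside it, usually as dimers. The phosphorylated tyrosines recruit adaptors that carry the signal to the RAS to ERK and PI3K to AKT pathways. Feedback inhibitors such as DUSP, SPRY and CBL proteins then dampen the signal. In lung cancers EGFR, MET, ERBB2 and RET are known as oncogenes. PRO-seq sees the transcription of these genes, not the receptor protein or its phosphorylation.

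Whole reads recovered from the deposited values numbered between 12072813 and 18475158 per library, and 1 read was worth 0.797 to 1.11 normalized reads. The recovered reads of a receptor in a library ran from 47 for ERBB3 to 8064 for IGF1R. Of 10 genes of the neuroendocrine state that marks most small cell lung cancers, 6 had a row and 5 were tested, none was called higher and 1 (DLL3) was called lower, by 0.83 on the log2 scale. SYP averaged 279.6 and BEX1 201.3 normalized reads over all 6 libraries, and the other tested markers lay below them. Of 5 genes of other states of this cancer, 2 were called higher (YAP1, by 0.73 on the log2 scale, and VIM, by 0.56) and 2 lower (MYC, at -0.57, and POU2F3, at -0.54). YAP1 had 4634 to 5431 normalized reads in siSFPQ libraries, against 3312 and 2856 in siCtrl libraries. No endothelial marker of 6 had a row, and of 6 immune markers 3 had one, with summed levels of 504 to 783 normalized reads in siSFPQ libraries against 752 and 752 in siCtrl libraries. Of these 3, ITGAX (log2 2.83) and CD79A (1.378) were called higher and CD68 (-0.49), which made up most of the sum, lower. Epithelial markers moved with the siRNA: of 6 with a row, 4 were called higher and 1 lower, and their summed level was 3364 to 4571 normalized reads in siSFPQ libraries, against 1182 and 1273 in siCtrl libraries. Of 8 fibroblast markers 2 were tested, COL1A1 was called higher, and their summed level was 411 to 582 normalized reads in siSFPQ libraries, against 224 and 255 in siCtrl libraries. The part of these changes in the receptor values was not tested. In bulk libraries fewer cells of a type and less RNA per cell cannot be told apart.

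The first comparison was of SFPQ knock-down with the control siRNA. MET, EGFR and ERBB3 were transcribed 2.60 to 6.47 times as much in siSFPQ libraries as in siCtrl libraries. FGFR2, RET and AXL were higher by smaller amounts, IGF1R and ERBB2 were slightly lower, and FGFR1 did not pass the test on normalized reads. So 6 of 9 receptors passed the threshold (adjusted p under 0.05) upward and 2 downward. Over all features tested, 24.8% were called higher and 23.2% lower. The median log2 fold change of the 9 receptors was 0.57, beside -0.02 over all features tested. The receptors were chosen with earlier results of these data known, so their counts and median are no independent test. The 6 higher receptors had all 4 siSFPQ libraries above both siCtrl libraries, and the 2 lower ones had all 4 below, which held for 30.3% and 31% of all features tested.

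MET, the receptor of hepatocyte growth factor, changed most. It had 1479 and 1620.0 normalized reads with siSFPQ-2, 2403 and 2612 with siSFPQ-3, against 300.5 and 327 with siCtrl. The 3 groups did not overlap, with siSFPQ-3 highest and siCtrl lowest. The mean was 2028 ± 563 in siSFPQ libraries (SD, n = 4) and 314 ± 18.6 in siCtrl libraries (SD, n = 2), a ratio of 6.47. The log2 fold change was 2.65 (SE 0.10, limma, adjusted p = 4.1e-08), higher in 4 of 4 siSFPQ libraries.

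EGFR binds epidermal growth factor and TGF-alpha and is the founding member of the ERBB family. It had 776 and 869 normalized reads with siSFPQ-2, 902 and 1040.1 with siSFPQ-3, against 361 and 330.1 with siCtrl. Every siSFPQ library lay above both siCtrl libraries. EGFR averaged 897 ± 109 in siSFPQ libraries and 346 ± 21.9 in siCtrl libraries, a log2 fold change of 1.37 (SE 0.11, limma, adjusted p = 4.34e-06). The antisense gene EGFR-AS1, which lies within EGFR, averaged 15.4 normalized reads in siSFPQ libraries and 0.554 in siCtrl libraries. EGFR-AS1 spans chr7:55179750-55188949, and EGFR averaged 1.79 normalized reads per kb of its own RefSeq span in siCtrl libraries. The sources used here do not say whether counting used strand, and its use was not tested. Without strand the reads of both genes cannot be told apart.

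ERBB3 has a weak kinase domain and signals as the partner of ERBB2 after binding neuregulins. Its normalized reads were 175 and 117 with siSFPQ-2, 212 and 170.1 with siSFPQ-3, against 47.0 and 52.1 with siCtrl. All siSFPQ libraries exceeded the siCtrl libraries, while the siRNAs overlapped. The log2 fold change was 1.72 (SE 0.20, limma, adjusted p = 6.59e-05), from means of 169 ± 38.9 in siSFPQ libraries and 49.5 ± 3.57 in siCtrl libraries.

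ERBB2, the ERBB receptor with no known ligand of its own, went the other way. Its normalized reads were 752 and 687 with siSFPQ-2, 697 and 595 with siSFPQ-3, against 928 and 787 with siCtrl. The groups did not overlap, but the gap between them was narrow beside the distance between the siCtrl libraries. The means were 683 ± 64.9 in siSFPQ libraries and 857 ± 99.8 in siCtrl libraries, a log2 fold change of -0.33 (SE 0.11, limma, adjusted p = 0.0317). Without siCtrl replicate 1, siCtrl replicate 2, siSFPQ-2 replicate 2 or siSFPQ-3 replicate 2, the adjusted p was 0.312, 0.0524, 0.0733 and 0.0643, and the adjusted p in the authors' deposited table was 0.0602. The gene MIEN1 overlaps the end of ERBB2 and was also lower, by 0.44 on the log2 scale (adjusted p = 0.0161).

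FGFR2 and FGFR1 bind fibroblast growth factors. FGFR2 had 1138 and 1069 normalized reads with siSFPQ-2, 1604 and 1531 with siSFPQ-3, against 877 and 887 with siCtrl. The groups stood apart in the order siSFPQ-3, siSFPQ-2, siCtrl. FGFR2 averaged 1335 ± 271 in siSFPQ libraries and 882 ± 6.98 in siCtrl libraries, a log2 fold change of 0.57 (SE 0.09, limma, adjusted p = 0.000444). FGFR1 had 2346 and 2515 with siSFPQ-2, 2567 and 3340.1 with siSFPQ-3, against 2529 and 2235 with siCtrl. Its groups overlapped, and the log2 fold change of 0.17 had a 95% interval of -0.10 to 0.43 (limma, adjusted p = 0.279). The profiles of FGFR1, given further on, showed a difference within the gene.

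AXL binds GAS6, a vitamin K-dependent ligand, and is often studied for resistance to EGFR inhibitors. It had 937 and 1023 normalized reads with siSFPQ-2, 796 and 883 with siSFPQ-3, against 677 and 666 with siCtrl. Here the siSFPQ-2 libraries were the higher ones, and no siSFPQ library reached down to siCtrl. AXL averaged 909.7 ± 95.3 in siSFPQ libraries and 671 ± 7.67 in siCtrl libraries, a log2 fold change of 0.43 (SE 0.10, limma, adjusted p = 0.00383). Without siCtrl replicate 2 the adjusted p was 0.0506.

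RET, the receptor of the GDNF family, was the lowest of the 9 per length. It had 113 and 114 normalized reads with siSFPQ-2, 90.3 and 106.3 with siSFPQ-3, against 79.7 and 63.1 with siCtrl. The groups did not overlap. The means were 105.98 ± 10.98 in siSFPQ libraries and 71.4 ± 11.7 in siCtrl libraries, a log2 fold change of 0.57 (SE 0.18, limma, adjusted p = 0.0235). Without siCtrl replicate 2 the adjusted p was 0.215, with DESeq2 on the recovered reads it was 0.0736, and in the authors' deposited table it was 0.0611.

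IGF1R, the receptor of insulin-like growth factors, had 4901 and 5243 normalized reads with siSFPQ-2, 5879 and 5349 with siSFPQ-3, against 6427 and 6837 with siCtrl. All siSFPQ libraries lay below the siCtrl libraries. The means were 5343 ± 405 in siSFPQ libraries and 6632 ± 290.2 in siCtrl libraries, a log2 fold change of -0.31 (SE 0.11, limma, adjusted p = 0.0344). The call was lost when any library but siSFPQ-3 replicate 1 was left out, with adjusted p between 0.0692 and 0.191, while the log2 fold change stayed between -0.36 and -0.27.

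KIT, the receptor of stem cell factor and a known receptor of some small cell lung cancers, was close to silent. Its mean profile signal over the gene was 0.368 and 0.111 with siSFPQ-2, 0.185 and 0.295 with siSFPQ-3, against 0.0801 and 0.147 with siCtrl. The libraries overlapped, and the siCtrl mean stood at the 30.8th percentile of the genes in the profiles. MET and EGFR stood at the 68.2nd and 68.7th percentile on the same scale, and FGFR1 at the 98.6th.

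**Figure D1:**
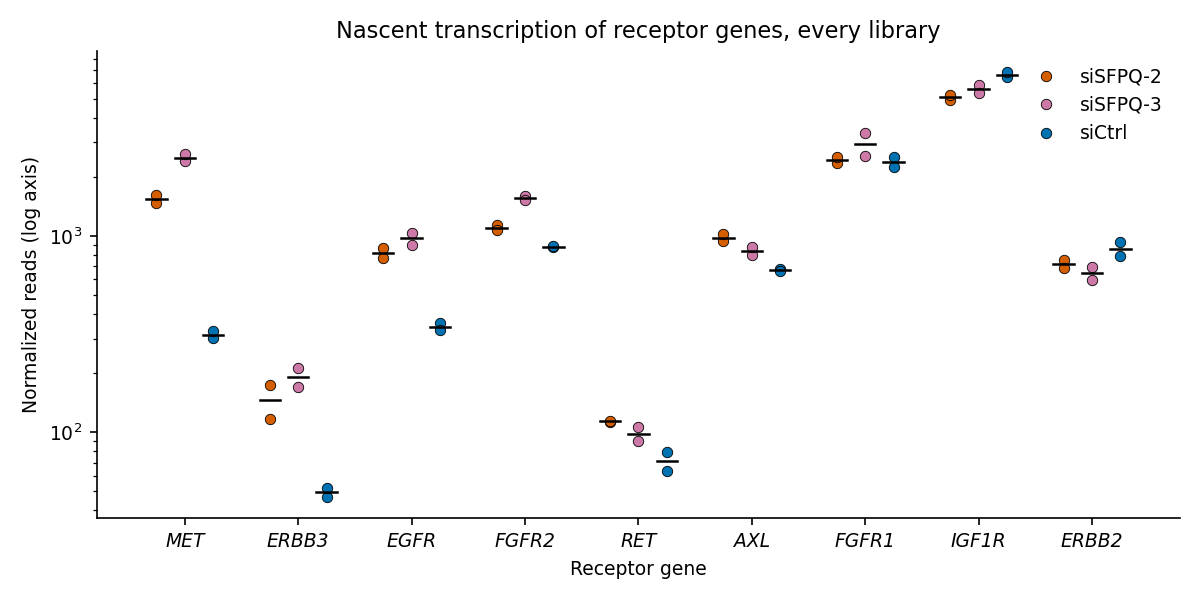
Normalized reads of the 9 receptors with a row, on a log axis. Each point is a library (siSFPQ-2, siSFPQ-3 and siCtrl, 2 libraries each) and each black line a group mean, and the siSFPQ points of MET, ERBB3 and EGFR stand well above the siCtrl points while those of FGFR1 overlap them.

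Levels of different genes were compared as normalized reads per kb of the RefSeq gene span (GRCh38.p14). Each row carried a transcript ID, such as ENST00000342916 for EGFR, whose ends the sources used here do not give. The counted stretch may thus be shorter than the span, and the order of levels depends on it. In siSFPQ libraries the order of levels per kb was FGFR1 (46.8), AXL (21.4), IGF1R (16.9), ERBB2 (16.8), MET (16.1), FGFR2 (11.1), ERBB3 (7.20), EGFR (4.66) and RET (1.99). In siCtrl libraries it was FGFR1 (41.4), ERBB2 (21.1), IGF1R (21.0), AXL (15.8), FGFR2 (7.35), MET (2.49), ERBB3 (2.12), EGFR (1.79) and RET (1.34). With siCtrl, the library values of ERBB2 (19.4 to 22.9) and IGF1R (20.3 to 21.6) overlapped, and no other neighbours in that order did. Among siSFPQ libraries the values of MET per kb (11.7 to 20.7) overlapped those of AXL (18.7 to 24.0), IGF1R (15.5 to 18.6), ERBB2 (14.7 to 18.5) and FGFR2 (8.90 to 13.3). Those of ERBB3 (5.02 to 9.06) also overlapped those of FGFR2 and of EGFR (4.03 to 5.40). The place of MET differed by siRNA. With siSFPQ-2 it had 11.7 and 12.8 per kb, below IGF1R (15.5 and 16.6) and ERBB2 (18.5 and 16.9). With siSFPQ-3 it had 19.0 and 20.7, above IGF1R (18.6 and 16.9) and ERBB2 (17.2 and 14.7), and with siCtrl it lay well below both.

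The second question was how far both siRNAs gave the same change. With siSFPQ-2, 6 receptors were called higher (MET, ERBB3, EGFR, RET, AXL and FGFR2) and 1 lower (IGF1R), while 21.2% and 17.9% of all features were called higher and lower. With siSFPQ-3, 5 were called higher (MET, ERBB3, EGFR, FGFR2 and AXL) and 1 lower (ERBB2), while 23% and 20.4% of all features were. These contrasts share the siCtrl libraries. The log2 fold change of MET was 2.30 with siSFPQ-2 and 2.995 with siSFPQ-3. For EGFR it was 1.25 and 1.49, and for ERBB3 1.51 and 1.92, in the same order. IGF1R had a log2 fold change of -0.39 with siSFPQ-2 (adjusted p = 0.0317) and -0.24 with siSFPQ-3 (adjusted p = 0.143). ERBB2 had -0.25 with siSFPQ-2 (adjusted p = 0.148) and -0.41 with siSFPQ-3 (adjusted p = 0.0257). Several of the smaller calls per siRNA were lost without 1 library. With siSFPQ-2, FGFR2 and IGF1R were not called without either siCtrl or either siSFPQ-2 library (adjusted p from 0.0706 to 0.137 for FGFR2 and from 0.0824 to 0.167 for IGF1R), nor RET without siCtrl replicate 2 or either siSFPQ-2 library (0.0728 to 0.176). With siSFPQ-3, AXL was not called without either siCtrl library or siSFPQ-3 replicate 2 (0.133 to 0.176), nor ERBB2 without siCtrl replicate 1 or siSFPQ-3 replicate 2 (0.215 and 0.140). With all libraries, DESeq2 did not call FGFR2 (adjusted p = 0.0567) or RET (0.0750) with siSFPQ-2 or AXL with siSFPQ-3 (0.0747), and scaling to the same total lost FGFR2 with siSFPQ-2 (0.0558) and AXL with siSFPQ-3 (0.0937).

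The difference itself, siSFPQ-3 against siSFPQ-2, passed the limma test for 0 of 9 receptors, beside 0.0781% of all features higher and 0.023% lower. MET was 0.69 higher with siSFPQ-3 on the log2 scale (95% interval 0.45 to 0.94, adjusted p = 0.0583), and FGFR2 0.51 higher (0.28 to 0.73, adjusted p = 0.0950). Their unadjusted p-values were 6.69e-05 and 0.000482. DESeq2 on the recovered reads called both (adjusted p = 0.000253 for MET and 0.0227 for FGFR2), and edgeR called MET (adjusted p = 0.0435). A limma fit with the replicate number as a block, which the main fit did not use, also called both (adjusted p = 0.00178 for MET and 0.00970 for FGFR2). Over all features the main fit called 17 higher and 5 lower. DESeq2 called 211 and 50, edgeR 40 and 11, and the block fit 572 and 188. Other settings called fewer features than the main fit, such as equal totals (1 and 0) and a filter at 50 normalized reads (3 and 0). For the other 7 receptors the 95% interval of the difference held 0, as for EGFR (-0.03 to 0.51) and ERBB3 (-0.10 to 0.91).

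**Figure D2:**
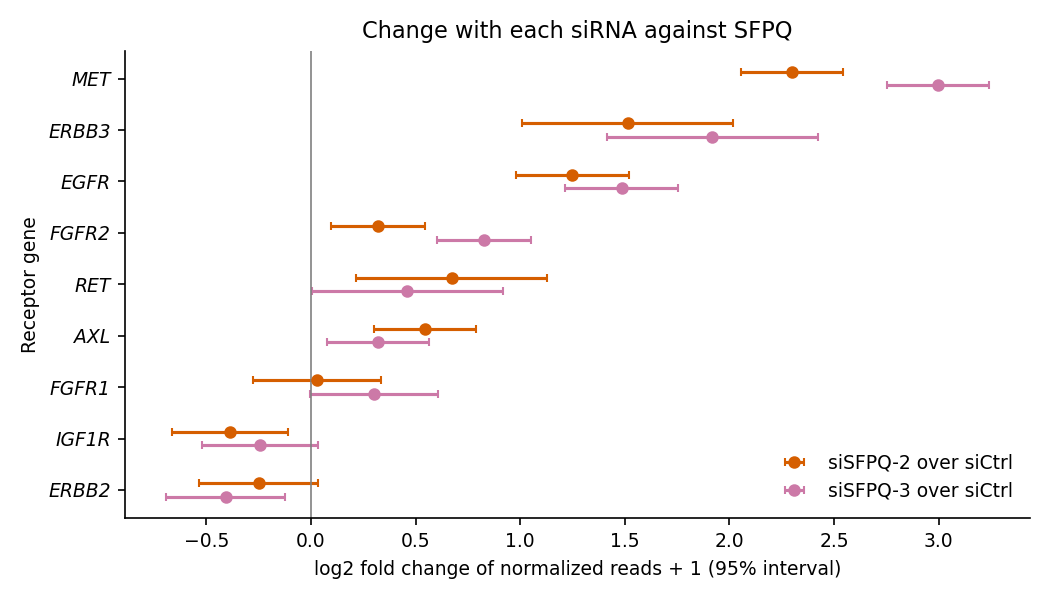
Log2 fold change of normalized reads + 1 against siCtrl, siSFPQ-2 above siSFPQ-3 for each receptor, with 95% intervals from limma. Both siRNAs lie right of 0 for MET, ERBB3, EGFR, FGFR2, RET and AXL and left of 0 for IGF1R and ERBB2, and the intervals of the siRNAs do not overlap for MET and FGFR2.

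The profiles show where along each gene the polymerase signal lay. In them 300 bins were taken to cover a gene, with 100 bins before and 100 after it, and each profile is of 1 transcript whose ends the sources used here do not give. The first 2% of the gene (6 bins) was taken as its start, and the later bins of the gene hold mostly elongating polymerase. The start window left out part of the polymerase near the start. In siCtrl replicate 1 the peak of EGFR, FGFR2, AXL and ERBB2 lay in the 10 bins before the gene. There EGFR had a mean of 833, against 52.3 in the first 10 bins of the gene, and FGFR2 2426.5, against 327. Past the first 2%, 7 receptors were called higher (MET, ERBB3, EGFR, RET, FGFR1, FGFR2 and AXL) and 2 lower (ERBB2 and IGF1R), beside 26.4% and 17.1% of the genes tested. This measure was chosen after seeing the data. With siSFPQ-2 alone 7 receptors were called higher and 1 lower on it, beside 22.4% and 11.7% of genes, and with siSFPQ-3 alone 6 and 2, beside 22.7% and 15.2%. FGFR1 differed here from its normalized reads, with a log2 change of 0.87 (SE 0.12, limma, adjusted p = 0.00141).

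In MET the signal past the first 2% was 23.5 and 26.7 with siSFPQ-2, 38.5 and 40.2 with siSFPQ-3, against 4.38 and 4.75 with siCtrl. The signal within the first 2% was 97.1, 96.3, 110.3 and 129 in the siSFPQ libraries, against 30.0 and 40.5 with siCtrl. Both windows stood apart, the gene more than its start. Just outside, over the 10 bins before the gene and the first 2% together, MET had 92.0, 115.6, 115.8 and 139 in the siSFPQ libraries, against 89.8 and 97.7 with siCtrl. There the groups overlapped. Signal after the end of MET was 26.8 to 36.6 in siSFPQ libraries, against 5.16 and 3.21 with siCtrl. In the bins farthest upstream it was 7.38 and 7.51 with siSFPQ-2, 22.2 and 18.6 with siSFPQ-3, against 1.39 and 2.92 with siCtrl. So that flank was higher too. The gene COMETT (chr7:116563594-116688027) covers the start of MET and had no row of normalized reads. Without strand the reads of both genes cannot be told apart where they overlap. The part of COMETT in the MET values was not tested.

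EGFR showed a like contrast. Within the first 2% it had 138, 118, 103 and 145 in the siSFPQ libraries, against 83.3 and 88.2 with siCtrl, so that window was higher too. Its signal over the 10 bins before the gene and the first 2% was 541, 788, 394 and 705 in the siSFPQ libraries, against 552 and 474 with siCtrl, so the groups overlapped. In the first 100 bins of the gene it was 26.6 and 30.2 with siSFPQ-2, 30.0 and 34.3 with siSFPQ-3, against 9.28 and 10.4 with siCtrl, and in the last 100 bins 5.13 and 5.02 with siSFPQ-2, 5.78 and 5.47 with siSFPQ-3, against 3.78 and 2.65 with siCtrl. Both stretches were higher in every siSFPQ library, and the ratio of the means was 3.07 in the first 100 bins, 3.31 in the middle 100 and 1.66 in the last 100.

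FGFR1 had its highest signal before and at the start of the profiled transcript. Within the first 2% it had 4296, 4412, 4437 and 5188 in the siSFPQ libraries, against 6086 and 5825 with siCtrl. Past the first 2% it had 423 and 444 with siSFPQ-2, 486 and 601 with siSFPQ-3, against 263 and 265 with siCtrl. So all 4 siSFPQ libraries were lower than siCtrl at the start and higher in the rest of the gene. Over the 50 bins farthest upstream FGFR1 had 5720.1 to 7606 in siSFPQ libraries, against 9302 and 8065 with siCtrl. The groups overlapped in the 50 nearest upstream bins (5506 to 7669, against 9039 and 7221) and over the 10 bins before the gene with the first 2% (7652 to 11730, against 13462 and 9589), where 1 siCtrl library was within the siSFPQ range.

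FGFR2 had 441, 443, 476 and 489 within the first 2% in the siSFPQ libraries, against 458 and 510.1 with siCtrl. Past it the signal was 95.3 and 82.3 with siSFPQ-2, 150.2 and 130.5 with siSFPQ-3, against 59.9 and 63.5 with siCtrl. Start values overlapped and gene values did not. AXL was alike in this, with 52.4 to 98.0 in siSFPQ libraries against 79.5 and 74.1 with siCtrl at the start, and 23.4 to 35.1 against 20.0 and 21.2 past it. ERBB3 was higher in every window, its flanks included. Before the gene, in the 50 nearest bins, it had 85.9 to 164 in siSFPQ libraries against 30.4 and 36.0 with siCtrl. In the 50 bins farthest upstream it had 331 to 542, against 99.4 and 130. That was above the signal over ERBB3 itself (51.3 to 82.8, against 17.0 and 20.4), and the source of the upstream signal was not tested. ERBB2 was lower both within the first 2% (399 to 648, against 790.1 and 780.2) and past it (76.0 to 99.3, against 119 and 115.5). IGF1R overlapped at the start (153 to 199, against 183 and 179) and was lower past it (78.0 to 89.0, against 103 and 111).

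**Figure D3:**
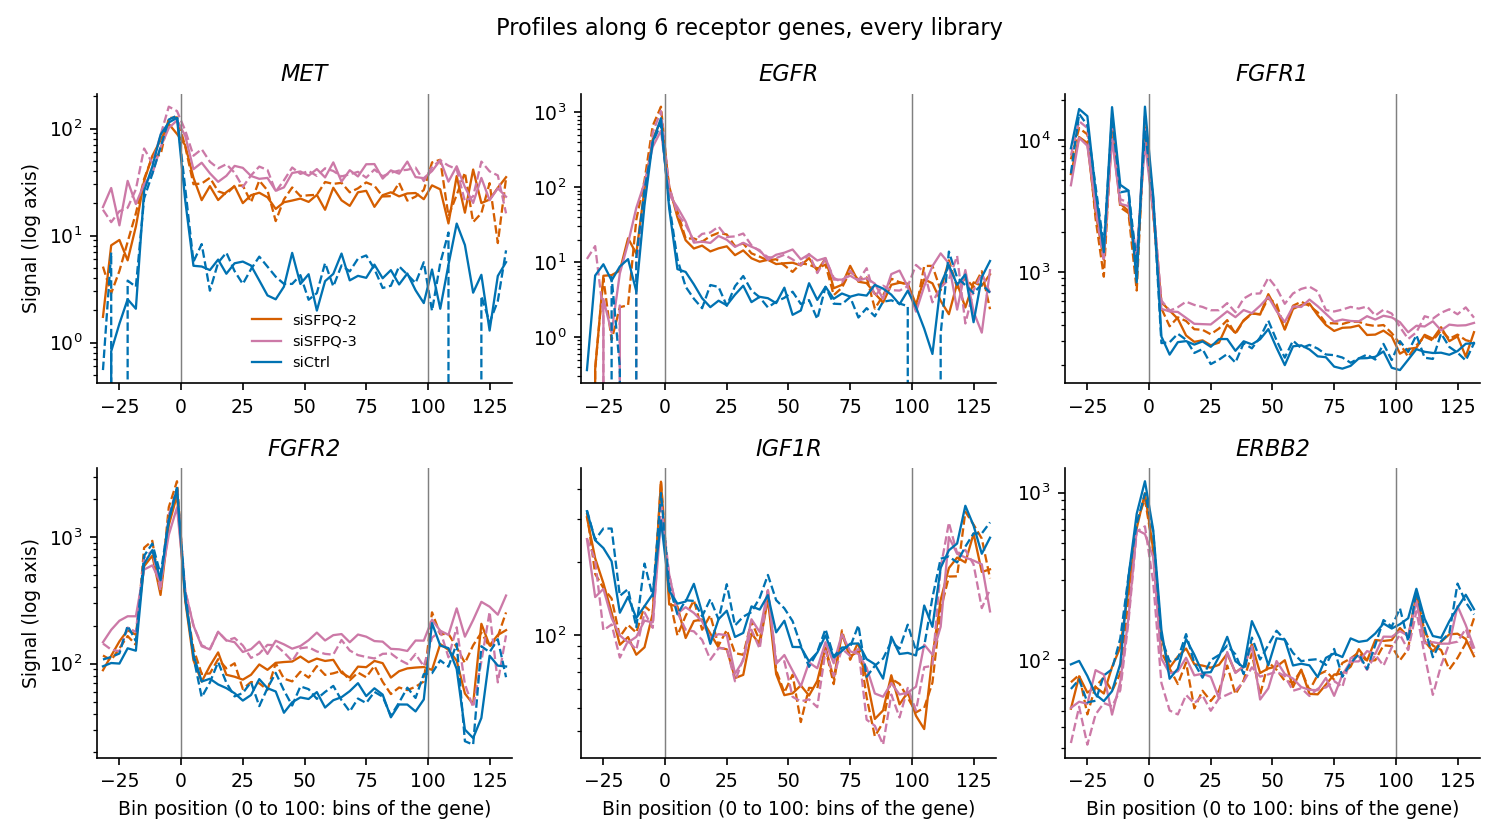
Deposited signal along MET, EGFR, FGFR1, FGFR2, IGF1R and ERBB2 in means of 10 bins, on log axes. Each line is a library (solid replicate 1, dashed replicate 2), grey lines mark the bins taken as the gene's ends, and blocks with no signal fall below the axis. Inside MET the siSFPQ lines run above the siCtrl lines, as they do in the earlier part of EGFR, where they cross near the gene's end, while at the peak just before either gene they meet.

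The start ratio, log2 of the mean signal in the first 2% over that in the rest, does not depend on how libraries were scaled. It was called lower with SFPQ knock-down for 4 of 9 receptors (FGFR1, EGFR, MET and FGFR2) and higher for 0, beside 8.41% and 1.43% of 20334 genes tested. Its median change was -0.92 over the receptors and -0.24 over all genes tested. FGFR1 had start ratios of 3.34 and 3.31 with siSFPQ-2, 3.19 and 3.11 with siSFPQ-3, against 4.53 and 4.46 with siCtrl, a change of -1.25 (SE 0.12, limma, adjusted p = 0.0201). EGFR had 3.56, 3.16, 2.80 and 3.29 in the siSFPQ libraries, against 4.32 and 4.42 with siCtrl, a change of -1.17 (SE 0.20, adjusted p = 0.0307). For both genes the groups stood well apart.

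MET had start ratios of 2.03, 1.84, 1.51 and 1.67 in the siSFPQ libraries, against 2.70 and 2.99 with siCtrl (change -1.09, SE 0.19, adjusted p = 0.0326). FGFR2 had 2.21, 2.42, 1.66 and 1.90 in the siSFPQ libraries, against 2.93 and 2.998 with siCtrl (change -0.92, SE 0.17, adjusted p = 0.0364). RET changed by -1.19 (adjusted p = 0.0586), ERBB3 by -0.54 (0.196), AXL by -0.53 (0.170) and ERBB2 by -0.13 (0.645), none past the threshold. IGF1R was the 1 receptor above 0, at 0.35 (adjusted p = 0.433). All 4 siSFPQ libraries lay below both siCtrl libraries for 6 receptors and above for 1 (IGF1R), which held for 33.4% and 8.49% of all genes tested.

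These calls sat close to the threshold. With any library but siSFPQ-3 replicate 2 left out, 0 of the 4 were called, and without that library 2 were (FGFR1 and EGFR), while the direction held in every fit and the changes stayed between -1.29 and -1.22 for FGFR1, -1.29 and -1.05 for EGFR, -1.23 and -0.94 for MET, and -0.98 and -0.85 for FGFR2. Over the first 5% of the gene the change of EGFR was -0.66 and not called (adjusted p = 0.0601), and RET was called (-0.99, adjusted p = 0.0488). With an added constant 10 times as large, EGFR (-0.72, adjusted p = 0.0620) and MET (-0.63, adjusted p = 0.0629) were not called. With siSFPQ-2 alone only FGFR1 passed (adjusted p = 0.0483), beside 0.28% of all genes lower and 0.148% higher. With siSFPQ-3 alone FGFR1, EGFR, MET, FGFR2 and RET passed, all lower, beside 8.21% lower and 1.02% higher. When the 10 bins before the gene were added to the start window, a choice made after seeing the data, the change of MET was -2.41 (adjusted p = 0.0177), and EGFR (-1.51, adjusted p = 0.0481) and FGFR1 (-1.11, adjusted p = 0.0466) were also called, while FGFR2 was not (-0.97, adjusted p = 0.0819).

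The gene end ratio, log2 of the mean signal in the last 100 bins of the gene over that in the first 100, was called for 0 of 9 receptors in the limma fit, with 0.384% of genes higher and 0.221% lower. An unadjusted p under 0.05 (limma) was reached by 4 receptors, FGFR1, AXL and MET upward and EGFR downward. Over all 20334 genes tested it was reached by 3487 upward and 1422 downward. EGFR had -2.31, -2.50, -2.31 and -2.58 in the siSFPQ libraries, against -1.24 and -1.83 with siCtrl, a change of -0.89 (95% interval -1.46 to -0.31, adjusted p = 0.105). It was the 1 receptor whose siSFPQ libraries all lay below siCtrl, which held for 11% of all genes. FGFR1 changed by 0.79 (adjusted p = 0.0678), AXL by 0.67 (0.140) and MET by 0.39 (0.189), beside a median of 0.14 over all genes, and these and FGFR2 had all siSFPQ libraries above siCtrl, as did 25.6% of all genes. With an added constant 10 times as large, EGFR (adjusted p = 0.0446) and FGFR1 (0.0425) were called. RET had a single siSFPQ-3 library at 0.57 while its other siSFPQ libraries lay between -1.63 and -0.42.

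**Figure D4:**
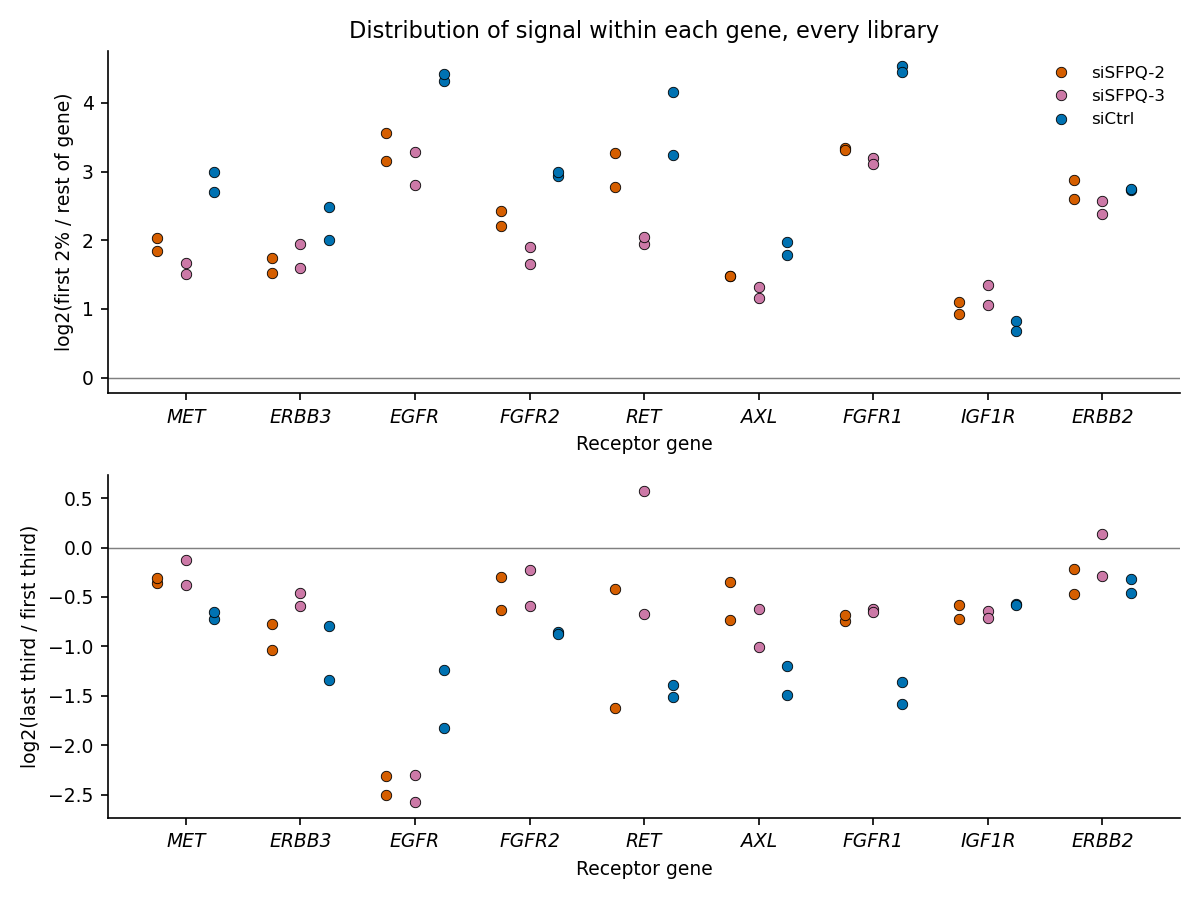
Start ratio (upper) and gene end ratio (lower) of the 9 receptors in every library, as log2 values. At the start, the siSFPQ points of FGFR1, EGFR, MET and FGFR2 lie below both siCtrl points, and at the end EGFR is the only receptor with all siSFPQ points below siCtrl.

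In MET and EGFR, as in FGFR1, FGFR2, AXL and RET, signal just before the gene overlapped between groups while the gene was higher. Promoter sequence is shown for MET and EGFR, and for IGF1R and ERBB2, the receptors called lower. Each is the 250 bases before the RefSeq start (GRCh38.p14, plus strand, 5′ to 3′), from chr7:116671946-116672195 for MET, chr7:55018767-55019016 for EGFR, chr15:98648289-98648538 for IGF1R and chr17:39687844-39688093 for ERBB2. Capitals mark matches on either strand to GGGCGG, the core of the Sp1 box, in MET, EGFR and IGF1R. In ERBB2 they mark TGANTCA, a loose form of the AP-1 core with any base at N, and CCGGAAG, an ETS core. The TGANTCA match in ERBB2 has T at N.
MET: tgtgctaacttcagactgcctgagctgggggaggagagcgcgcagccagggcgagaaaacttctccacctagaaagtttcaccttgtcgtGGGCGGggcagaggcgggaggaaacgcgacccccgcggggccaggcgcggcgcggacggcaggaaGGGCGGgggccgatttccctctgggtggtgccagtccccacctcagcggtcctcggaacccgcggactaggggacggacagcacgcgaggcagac
EGFR: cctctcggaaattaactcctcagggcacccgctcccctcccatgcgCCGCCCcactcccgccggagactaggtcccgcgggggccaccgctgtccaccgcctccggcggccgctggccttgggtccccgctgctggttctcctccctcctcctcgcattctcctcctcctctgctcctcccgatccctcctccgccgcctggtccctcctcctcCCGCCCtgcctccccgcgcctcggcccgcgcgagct
IGF1R: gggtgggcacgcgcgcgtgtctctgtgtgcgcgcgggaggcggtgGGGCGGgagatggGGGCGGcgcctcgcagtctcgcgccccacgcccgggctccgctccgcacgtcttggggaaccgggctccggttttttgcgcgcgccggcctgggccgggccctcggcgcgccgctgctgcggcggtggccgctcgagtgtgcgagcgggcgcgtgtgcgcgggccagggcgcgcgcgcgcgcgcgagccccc
ERBB2: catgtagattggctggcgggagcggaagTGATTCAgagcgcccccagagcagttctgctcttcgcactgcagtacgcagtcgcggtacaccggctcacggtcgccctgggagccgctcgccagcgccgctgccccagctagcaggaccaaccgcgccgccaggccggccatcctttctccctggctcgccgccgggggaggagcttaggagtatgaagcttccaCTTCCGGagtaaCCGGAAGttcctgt

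The RefSeq promoter table held 8 of the 10 receptors. GGGCGG was found in 7 of them (2 matches each in MET, EGFR, IGF1R and AXL, 3 in FGFR2, 5 in RET and 1 in KIT), and in 42.3% of the 27305 promoters of the same length. ERBB2 was the 1 without it. TGANTCA was found only in ERBB2 (6.60% of all promoters), as was CCGGAAG, with 2 matches (8.82%). The TEAD core GGAATG (11.9% of all promoters), the RUNX core TGTGGT (10.9%) and the E-box CACGTG (6.49%) were in none of the 8. GC content was 68.4% for MET, 73.6% for EGFR, 81.2% for IGF1R and 65.6% for ERBB2. A match describes these letters and is no evidence of a bound factor.

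By RefSeq, MET spans chr7:116672196-116798377, EGFR chr7:55019017-55211628, ERBB3 chr12:56080108-56103505, ERBB2 chr17:39688094-39728658, FGFR2 chr10:121478330-121598458, IGF1R chr15:98648539-98964530, AXL chr19:41219223-41261766, RET chr10:43077069-43130351 and KIT chr4:54657957-54740715. The lengths run from 23.4 kb for ERBB3 to 316 kb for IGF1R, and MET, with the largest fold, spans 126 kb.

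Of 48 other receptor tyrosine kinases, 33 were tested with SFPQ knock-down against siCtrl, 13 were called higher and 7 lower, beside 24.8% and 23.2% of all features, with a median log2 fold change of 0.24. FLT1, a receptor of vascular endothelial growth factor, had the largest rise, to 1135, 1360, 1083 and 1023 normalized reads in siSFPQ libraries, against 179 and 208 with siCtrl (log2 2.56, SE 0.11). EPHA5, an ephrin receptor, followed (2.16), then the collagen receptor DDR1 (0.94), the insulin receptor INSR (0.86), EPHA2 (0.73) and the WNT co-receptor RYK (0.50). Lower were EPHA8 (-1.21), EPHB3 (-0.93), ROR1 (-0.90), FGFR4 (-0.88), EPHA7 (-0.63) and the collagen receptor DDR2 (-0.50). These 12 genes were picked by smallest p in each direction, so both signs were bound to appear among them. Within families, EPHA2 and EPHA5 were higher and EPHA7, EPHA8 and EPHB3 lower, DDR1 higher and DDR2 lower, and FGFR2 higher and FGFR4 lower. INSR, the closest relative of IGF1R, rose while IGF1R fell. The largest adjusted p among these 12 genes was 0.00567 (limma).

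Of 48 ligands and co-receptors of the 10 receptors, 31 were tested, 13 were called higher and 10 lower, beside the same 24.8% and 23.2%, with a median of 0.26. FGF8 (2.52), FGF1 (2.12), PROS1 (2.02) and TGFA (1.42) were higher. FGF1 and FGF8 bind FGF receptors, TGFA binds EGFR, and PROS1 encodes protein S, which binds the TYRO3 family to which AXL belongs. TGFA had 467, 475, 549 and 455 normalized reads in siSFPQ libraries, against 191 and 171 with siCtrl, so both it and its receptor were higher. Lower were NRG2 (-2.63), a neuregulin that binds the ERBB receptors, IGF2 (-1.79), which binds IGF1R, the EGFR ligand EPGN (-1.56) and GAS6 (-1.14), the ligand of AXL. GAS6 had 409, 309, 403 and 300.8 normalized reads in siSFPQ libraries, against 757 and 793 with siCtrl, opposite to AXL. HGF, the ligand of MET, had no row, and its profile signal was near 0, between 0.0816 and 0.512 in siSFPQ libraries and between 0.320 and 0.564 in siCtrl libraries.

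Among 48 adaptors and signal carriers tested of 54 listed, 22 were called higher and 6 lower, with a median of 0.17, against 24.8% and 23.2% of all features. The adaptors SHC4 (2.71) and GAB2 (1.383), the SRC-family kinase FYN (1.49) and the PI3 kinase catalytic subunit PIK3CA (1.05) were higher. The adaptors GRB14 (-1.45), SHC3 (-1.41) and DOK1 (-1.03) and the phospholipase PLCG2 (-0.87) were lower. SHC3 and SHC4, of the same adaptor family, moved in opposite directions, with 143 ± 35.3 and 668 ± 64.3 normalized reads in siSFPQ libraries, against 374 ± 0.324 and 101.03 ± 8.15 in siCtrl libraries.

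Inhibitors and feedback genes of receptor signalling were mostly higher. Of 53 listed, 50 were tested, 34 were called higher and 1 lower, with a median of 0.52, beside 24.8% and 23.2% called over all features. Like the other lists, this one was chosen with earlier results of these data known, so its counts are no independent test. The ERK phosphatase DUSP6 (3.47), the phosphoinositide phosphatase INPP4B (2.91), the FGF receptor antagonist IL17RD (2.52) and CBLB (2.17), a ubiquitin ligase, were higher. SOCS2, a suppressor of cytokine signalling, was the 1 lower gene (-0.87). INPP4B had 930 and 1028 normalized reads with siSFPQ-2, 1710.1 and 1728 with siSFPQ-3, against 159 and 185 with siCtrl, and of these 4 lists it was the only gene called between the siRNAs (log2 0.81, adjusted p = 0.0477). Its order of groups was that of MET.

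**Figure D5:**
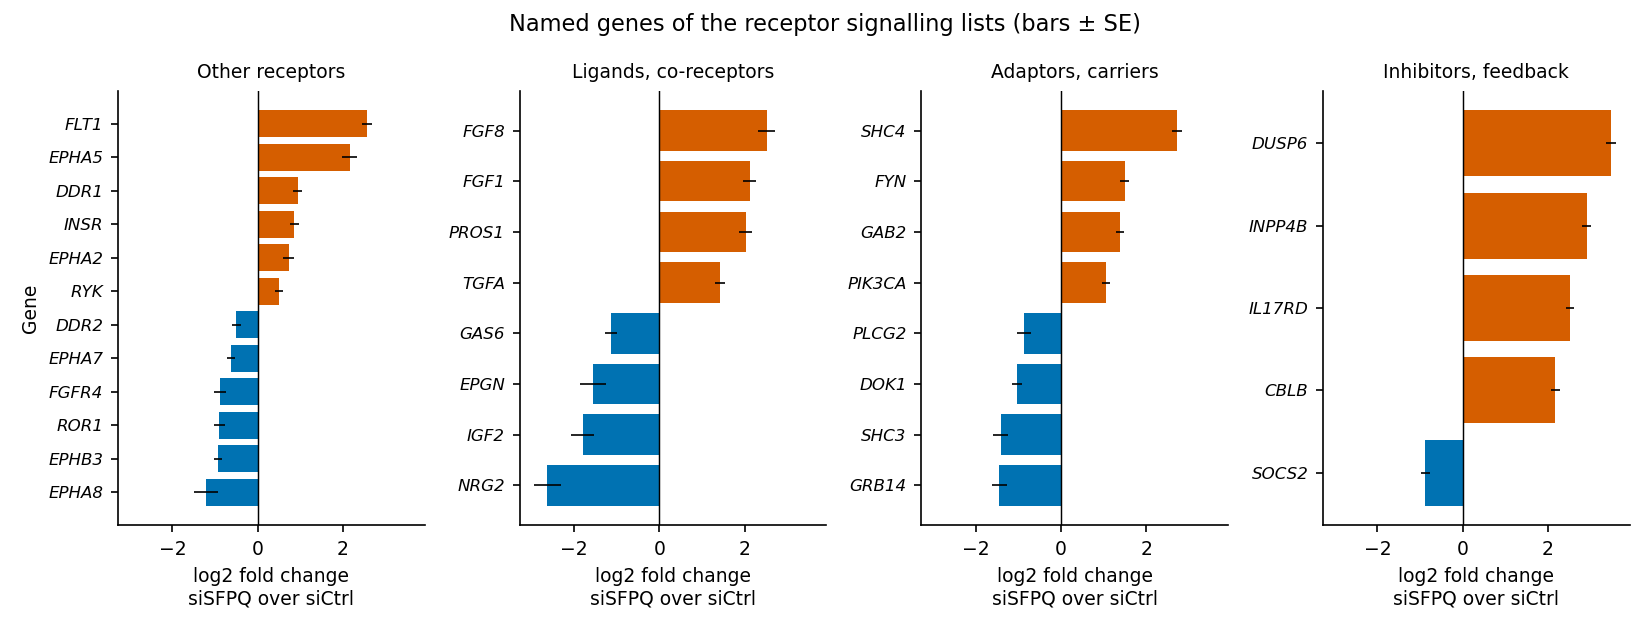
Log2 fold change of normalized reads + 1, siSFPQ over siCtrl, for the genes with the smallest p in each direction in 4 lists, with SE from limma. Bars run right of 0 for higher and left for lower genes, and the list of inhibitors and feedback genes has 1 bar on the left, SOCS2.

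The tested features whose pattern over the 6 libraries came closest to that of MET were LINC02732, CASC15 and ABLIM1. Their root mean square distance, over log2 values set to 0 at the siCtrl mean, was 0.117, 0.163 and 0.186, among 9902 candidates, which were the tested features with a gene symbol (not a clone name) and a mean of at least the tested median of 286.8 normalized reads. For ERBB2, which had the lowest fitted value (-0.33, within 1 SE of the -0.31 of IGF1R), they were STK32C (0.0255), BORCS5 (0.0437) and NRSN2 (0.0439).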

How the data were processed

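The authors' deposited table gave normalized reads per feature, a signal of which every value was a whole multiple of 1 read (100% at a tolerance of 0.1 read), and the authors' log2 fold change and adjusted p-value. Profiles of signal in 500 bins per gene were also deposited. DESeq2 1.38.1, UMI-tools, SAMtools 1.3.1, cutadapt 1.14 and Bowtie2, with the builds hg38 and dm6, are named per the submitters' processing notes. The sources used here do not give their order, the role of the fly build, the counted part of a gene, the use of strand or the scaling of the profiles. Of 26067 lines 240 repeats were removed. The test took features with 10 or more normalized reads in 2 or more libraries, as log2(value + 1), with limma 3.58.1 (trend) in R 4.3.3, in 1 fit of 3 groups, and p-values were adjusted by Benjamini-Hochberg over all features at 0.05. Fold changes on this scale understate changes of low genes. Window ratios added a constant, the 1st percentile of each library's values above 0, and were fitted the same way over 20334 genes. Alternatives were edgeR 4.0.16 and DESeq2 1.42.0 on the recovered reads, pseudocounts, filters, scalings, other windows, the replicate number as a block and each library left out. The receptors and lists were chosen with earlier results of these data known. All 10 receptors were to be named. From each other list the genes with the smallest p past the threshold were named, up to 4 in each direction (6 for other receptors). For the likeness, 3 features were named per gene. Counts of the paired libraries exceeded sampling noise: chi-square over degrees of freedom was 10.99 for siSFPQ-2, 22.7 for siSFPQ-3 and 10.3 for siCtrl. No replicate or column was pooled.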

Additional observations from a re-analysis of the deposited data

How the results depend on the processing

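MET, EGFR, ERBB3 and FGFR2 were called higher in SFPQ knock-down against siCtrl under all 16 alternatives, with log2 fold changes of 2.59 to 2.71, 1.303 to 1.71, 1.57 to 1.93 and 0.54 to 0.85. AXL was lost only without siCtrl replicate 2. Without 1 library, the receptors called were 4 to 6 higher and 0 to 2 lower for SFPQ knock-down, 4 to 6 and 0 to 1 for siSFPQ-2, and 4 to 6 and 0 to 1 for siSFPQ-3, and 0 to 1 higher for siSFPQ-3 against siSFPQ-2. The features called were 3622 to 5502 higher and 2463 to 5205 lower for SFPQ knock-down (5400 and 5044 with all libraries), 2914 to 4904 and 1792 to 4414 for siSFPQ-2, 3408 to 5021 and 2082 to 4571 for siSFPQ-3, and 0 to 213 and 0 to 95 between the siRNAs. The lowest of the first pair came without siCtrl replicate 2 and siCtrl replicate 1. On the profile signal past the first 2%, an alternative chosen after seeing the data, 2374 features were lower with siSFPQ-2 (3906 on normalized reads) and 2 receptors were lower with siSFPQ-3. FGFR1 with siSFPQ-2 changed sign without siCtrl replicate 2 (-0.058) and without siSFPQ-2 replicate 2 (-0.019), being near 0 (0.03) with all, and ranged from -0.058 to 0.12 without 1 library. Between the siRNAs, 17 features were higher and 5 lower, against 211 and 50 with DESeq2, 40 and 11 with edgeR, 3 and 0 with the filter at 50, 5 and 0 with a pseudocount of 0.1, 1 and 0 with equal totals, and 0 and 0 on the profile signal. There 2 receptors were higher with DESeq2, 1 with edgeR and 1 with a pseudocount of 5. The gene end ratio gave 78 genes higher and 45 lower, against 419 and 208 with 10 times the constant (1 receptor higher and 1 lower), 0 and 1 with shorter windows at both ends, and 0 to 0 higher and 0 to 0 lower without 1 library, at 3487 and 1422 genes with an unadjusted p under 0.05. The start ratio gave 290 higher and 1711 lower, against 170 and 747 with the 10 bins before the gene included, and 0 to 135 and 0 to 1012 without 1 library, with 0 to 2 receptors lower then and 2 with 10 times the constant. The cause was not tested.

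Replicate numbers are shared by the groups, but no label says that libraries of the same number belong together. The differences of replicate 1 and replicate 2 correlated over features at 0.0529 between siCtrl and siSFPQ-2 and 0.0587 between siCtrl and siSFPQ-3. Between the siRNAs they correlated at 0.382. The main fits did not pair libraries by number, and whether the siSFPQ libraries shared a replicate effect was not tested. With the replicate number as a block, 572 features were higher and 188 lower between the siRNAs, with 2 receptors higher (MET and FGFR2), the gene end ratio gave 0 and 0 genes, and the start ratio 92 and 298 with 1 receptor lower (FGFR1). FGFR1 was then also called higher with siSFPQ-3 (adjusted p = 0.0480), and no other call on a receptor's normalized reads changed.

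Results by setting for single receptors kept their direction and side of the threshold in 665 cases, lost the call in 63, gained it in 17 and changed sign in 2. Depth limited ERBB3 and RET most, with no more than 197 and 127 reads in any library. With 2 libraries per group, calls of small changes such as those of IGF1R and ERBB2 were lost when single libraries were left out. Scaling was the authors', so a change of all genes together could not be seen.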
